A study of Caenorhabditis elegans with 2 samples.

Results

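The spliced leader genes of Caenorhabditis elegans were the 30 genes of the snRNA class in the Ensembl WBcel235 annotation whose names start with sls-1 or sls-2, out of 46890 nuclear genes and 129 snRNA genes. They comprise 12 SL1-type genes, all in a tandem array on chromosome V, and 18 SL2-type genes, of which 4 lie on chromosome I, 3 on II, 6 on III and 5 on IV. The peaks of the transcription factor DAF-19 at these genes were taken from chromatin immunoprecipitation and sequencing of whole worms, in which a peak's summit was counted for a gene when it lay inside the gene or within 200 bp of it. The rule that picks the members uses name and class and no measured value.

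The data come from 2 biological replicates of a single group, whole L4 larvae of strain OP794 at 48 hours, grown from L1 larvae that had been starved after bleaching. Every animal carried the integrated transgene wgIs794, a daf-19 copy fused to TY1, EGFP and 3xFLAG tags together with unc-119(+), in the unc-119 (tm4063) mutant background. Sonicated chromatin, with a stated size range of 200 to 800, was precipitated with an antibody against GFP, so the peaks report the tagged protein in whole animals, with no cell type resolved. There was no untagged, mutant or second-stage group here, and a control experiment named in the labels was not analysed here. The deposited values are peak lists with the authors' peak signal and an irreproducible discovery rate (IDR), a measure of how well the rank of a peak holds up between replicates, or between portions of a sample in a replicate's own list. Read counts and depth are unknown, the scaling of the signal is not stated, and signals are therefore compared only within a list.

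In trans-splicing, a short leader is cut from the start of a spliced leader RNA and joined to the start of the messenger RNAs of other genes. SL1 is used mainly on messages with their own promoter and on the first gene of an operon, and SL2 mainly on the downstream genes of operons. The leader genes are small, are transcribed by RNA polymerase II, and carry a short upstream element, the proximal sequence element, that is bound by the SNAPc complex. In nematodes the SL1 genes share a repeat unit with the 5S ribosomal RNA genes. DAF-19 is the RFX factor of the worm, known for binding the X-box in promoters of genes for sensory cilia.

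Of the 30 genes, the sequences that follow are the repeated SL1 gene, the SL2-type gene with the strongest peak (sls-2.1), a gene with the same leader and a weak peak (sls-2.3), the strongest SL2-type gene with another leader (sls-2.15), and the gene with no ranked peak in any list (sls-2.8). They are given on the strand of the gene from assembly ce11 (WBcel235), 5′ to 3′. Capitals run from the annotated start to the end of the leader.
sls-1.10 (V:17131064-17131161, minus strand): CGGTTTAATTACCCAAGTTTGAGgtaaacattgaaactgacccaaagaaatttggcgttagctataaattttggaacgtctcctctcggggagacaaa
sls-2.1 (II:5844865-5844974, plus strand): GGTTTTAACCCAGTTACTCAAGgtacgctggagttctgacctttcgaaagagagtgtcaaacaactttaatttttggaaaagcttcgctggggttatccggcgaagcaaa
sls-2.3 (II:5544164-5544273, minus strand): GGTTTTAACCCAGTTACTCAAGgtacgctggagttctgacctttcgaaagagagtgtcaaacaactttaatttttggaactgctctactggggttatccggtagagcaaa
sls-2.15 (III:11091010-11091121, plus strand): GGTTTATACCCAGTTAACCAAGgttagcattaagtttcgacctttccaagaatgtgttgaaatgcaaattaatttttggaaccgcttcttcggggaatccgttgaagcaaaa
sls-2.8 (III:12250465-12250575, plus strand): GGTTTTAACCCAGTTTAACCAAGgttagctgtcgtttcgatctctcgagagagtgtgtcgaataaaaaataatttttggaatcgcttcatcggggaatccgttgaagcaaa
All 10 genes named sls-1.10 were 98 bp long and had the same sequence, and their annotated start lies 1 base before the GG with which every SL2-type gene begins. The 2 genes named sls-1.1, each 68 bp, were annotated without the leader and were equal to the end of sls-1.10. The 18 SL2-type genes held 11 different leaders, 14 of them with 22 bases, 2 with 21 and 2 with 23.

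DAF-19 peaks were found at SL2-type genes and at no SL1-type gene. In the list made from both replicates, 9 of the 18 SL2-type genes had a summit at an IDR of 0.01 or less (50%; 95% Wilson interval 29 to 71), against 2.69% of all nuclear genes (1260 of 46890). Of the 12 SL1-type genes 0 had one, which gives an upper bound of 24.2% by the same interval. That bound is on called peaks and not on binding. The array is repeated sequence, and 10 of these genes with their flanks held no unique 50-base sequence, as described below. Intervals cover counting error only, and the copies of an array share their sequence, so genes are not replicates. A summit of any rank lay at 16 of 18 SL2-type genes (88.9%; 67.2 to 96.9), at 0 of 12 SL1-type genes and at 61.3% of all nuclear genes. That list holds 117986 ranked peaks, of which only 996 passed an IDR of 0.01, so a ranked summit by itself is a weak criterion.

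Since long genes catch more summits by their size, the start of each protein-coding gene was also given a window of 510 bp, about that of an SL2-type gene with its flanks. Within it 0.871% of protein-coding starts had a summit at an IDR of 0.01 or less and 53.3% one of any rank. The SL2-type genes, given the same window, had counts of 9 and 16. Among other small RNA genes, measured within 200 bp, the share at an IDR of 0.01 or less was 10.1% for the 99 other snRNA genes (10 genes), 36.4% for the 612 tRNA genes, 15.6% for the 346 snoRNA genes and 4.98% for the 261 miRNA genes. The SL2-type share of 50% was thus the highest of these classes, with 18 genes behind it, and the share of tRNA genes lay within its interval.

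**Figure D1:**
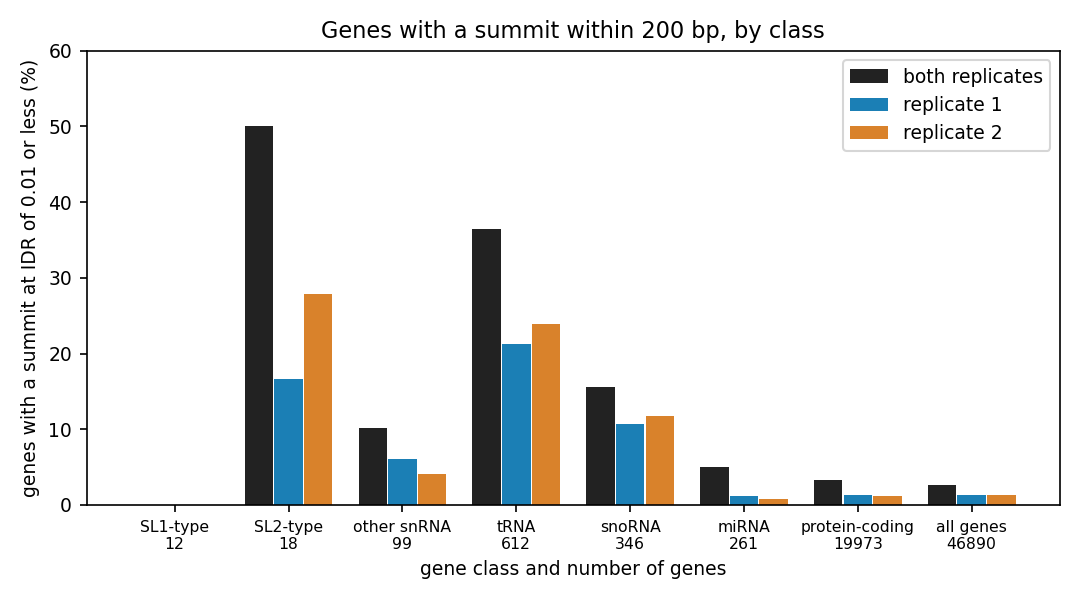
Share of genes (percent) with a DAF-19 summit within 200 bp at an IDR of 0.01 or less, by gene class, in the list made from both replicates and in each replicate alone. SL2-type genes stand at 50% in the combined list and at 16.7% and 27.8% in replicates 1 and 2, and SL1-type genes at 0% in each.

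Each replicate's own list gave fewer SL2-type genes. In replicate 1, 3 of 18 genes had a summit at an IDR of 0.01 or less (16.7%; 5.84 to 39.2), against 1.27% of all nuclear genes. In replicate 2, 5 of 18 genes had one (27.8%; 12.5 to 50.9), against 1.32%. The whole lists shrank too, to 408 and 394 peaks at that threshold. tRNA genes reached 21.2% and 23.9% in replicates 1 and 2, so in replicate 1 their share was above that of the SL2-type genes. SL1-type genes had 0 in each replicate, also among summits of any rank.

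Signal at the 16 SL2-type genes with a ranked summit had a median of 104 and ran from 34 to 422, in the authors' units and on the list of both replicates. The median over all ranked peaks of that list was 34.9 and over the peaks at an IDR of 0.01 or less 125, with a maximum of 782. Taken as the highest signal of each gene, as for SL2-type genes, the median over all nuclear genes with a ranked summit was 53.9. The 9 genes past the threshold had a median of 131 and the 7 with a ranked summit only a median of 48. In the replicates alone the medians were 51.2 (25.6 to 246) and 56.7 (18.5 to 181), against list medians of 20.7 and 18.5. Over all nuclear genes with a ranked summit the medians there were 31.3 and 27.6. The other snRNA genes had a median of 64.3 over 54 genes with a ranked summit, tRNA genes 111 and snoRNA genes 63.4. Protein-coding genes had 63.3 over their whole length and 42.6 in the windows of 510 bp around their starts. The strongest of the other snRNA genes were R07E5.16 (WBGene00014543) with a signal of 327, sup-6 with 296 and F54D8.7 (WBGene00195000) with 211. Several annotated genes share the name R07E5.16 or F54D8.7, and some of them had no ranked summit. sls-2.1 and sls-2.4 thus had the highest signals of the whole snRNA class.

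**Figure D2:**
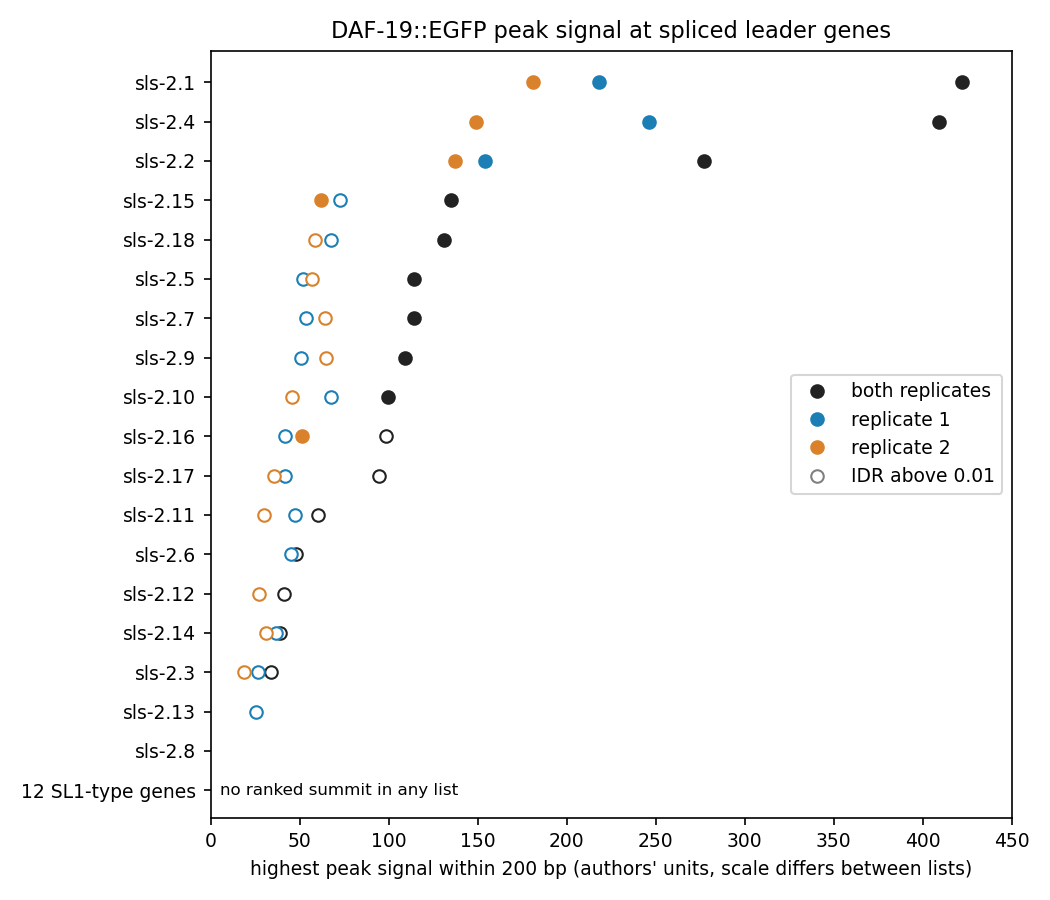
Highest peak signal within 200 bp of each spliced leader gene (authors' units, whose scale differs between lists) in the list of both replicates and in replicates 1 and 2, with open symbols for an IDR above 0.01. sls-2.1, sls-2.4 and sls-2.2 stand apart at 422, 409 and 277, the next gene is at 135, and the 12 SL1-type genes have no summit in any list.

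The strongest signals belonged to 3 genes with the leader printed above for sls-2.1. sls-2.1 (WBGene00004833) had a signal of 422, rank 11 of all ranked peaks, with a −log10 IDR of 4.54, and signals of 218 and 181 in replicates 1 and 2. Its summit lay 21 bp past the first base of the gene in the list of both replicates and in replicate 1, and 1 bp past it in replicate 2, that is near the end and the start of the leader. sls-2.4 (WBGene00004836) had a signal of 409, rank 12, with a −log10 IDR of 4.49, and 246 and 149 in the replicates. Its strongest summit lay at +20 bp, and at −5 and +85 bp in replicates 1 and 2, and a weaker summit at +220 bp also passed the threshold with a signal of 273. sls-2.2 (WBGene00004834) had a signal of 277, rank 46, with a −log10 IDR of 4.0 and a summit at +68 bp, and 154 and 137 in the replicates. These 3 were the genes that passed the IDR threshold in each replicate's own list as well, and the only SL2-type genes with a −log10 IDR of 3 or more. The nearest protein-coding starts were those of ZK1248.17, 655 bp from the summit at sls-2.1, and of egg-5, a gene of egg activation, 637 bp from that at sls-2.4. For sls-2.2 the nearest such start was that of ins-13, an insulin-like gene, at 1198 bp.

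The 4th gene with this leader, sls-2.3 (WBGene00004835), was the weakest gene with a ranked summit. It had a signal of 34 at 33 bp upstream of its start, a −log10 IDR of 0.41, and 26.6 and 18.5 in replicates 1 and 2, each close to or above the median ranked peak of its list. Yet sls-2.3 lies 456 bp from sls-2.2 and is transcribed towards it, and the genes are 97.3% identical. Their 80 upstream bases were 76.2% identical. The share of 50-base sequences found at a single place in the genome was 91.8% for sls-2.2, 89.6% for sls-2.3 and 89.6% for sls-2.1 in the gene with 200 bp on either side. Inside the gene it was 65.6%, 50.8% and 50.8%. Its part in the signals was not tested.

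The other 6 genes past the threshold had signals from 99.7 to 135. sls-2.15 (III:11091010-11091121) had a signal of 135 with a −log10 IDR of 2.72 and a summit 56 bp upstream of its start. In the replicates its signals were 72.7 and 61.8, past the threshold in replicate 2 (2.31) and not in replicate 1 (1.87). sls-2.18 (III:7142291-7142397) had a signal of 131 (2.60; replicates 67.7 and 58.5), with its summit 27 bp past the end of the gene. sls-2.5 (III:7140447-7140553) had a signal of 114 (2.13; replicates 51.8 and 56.7), with its summit inside the gene at +88 bp. Neither sls-2.18 nor sls-2.5 passed the threshold in a replicate alone.

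sls-2.7 (I:9057890-9057999) had a signal of 114 (−log10 IDR 2.32; replicates 53.6 and 64.1), but its strongest summit lay 132 bp past the end of the gene, within spe-46, a gene of sperm. The start of another protein-coding gene, W06D4.3, was 386 bp from that summit. A further summit inside sls-2.7, at +41 bp, also passed the threshold (2.31), with a signal of only 12.5. sls-2.9 (I:13297877-13297985) had a signal of 109 (2.16; replicates 50.6 and 64.7), with its summit 129 bp upstream. A tRNA gene lay 3 bp from that summit and the non-coding RNA gene M01E5.8 lay 2 bp from it. sls-2.10 (IV:9130721-9130829) had a signal of 99.7 (2.16; replicates 67.8 and 45.9), with its summit 180 bp past the end of the gene and 158 bp from nrfl-1. For these 3 genes the strongest summit lay more than 100 bp outside the leader gene. The summits of sls-2.15 and sls-2.18 were closer but also outside it. That of sls-2.15 lay within W09D6.5, and that of sls-2.18 within glr-2 and the non-coding RNA gene B0280.21. For all of these genes, whether the peak belongs to the leader gene or to a neighbour cannot be told apart from positions.

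Just outside the threshold stood sls-2.16, with a signal of 98.6 and a −log10 IDR of 1.51, beside 2.13 for sls-2.5 just inside it. In replicate 2 sls-2.16 passed (2.04, signal 51.3), and in replicate 1 it did not (signal 41.8). In the other deposited list made from both replicates sls-2.16 passed with 2.14 and sls-2.9 fell to 1.32, so the count stayed at 9 with a different member. sls-2.17 had a signal of 94.6 (1.11) at +23 bp, and 822 bp away began msp-65, a major sperm protein gene. Signals at the 5 further genes with a ranked summit ran from 34 for sls-2.3 to 60.5 for sls-2.11, which lies inside daf-10, a gene of ciliary transport, on the opposite strand. sls-2.13 had a ranked summit only in replicate 1, with a signal of 25.6 at 195 bp upstream, and sls-2.8 had none in any list.

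Replicates ordered the SL2-type genes much alike. A ranked summit was present in both replicates at 14 genes, in replicate 1 only at 2, in replicate 2 only at 1 and in neither at 1. Over those 14 genes Spearman's rho between the replicates' signals was 0.833, given as a description since the genes share their libraries and parts of their sequence. The ratio of replicate 1 to replicate 2 had a median of 1.17, ran from 0.782 at sls-2.9 to 1.65 at sls-2.4, and was above 1 at 10 of 14 genes, on scales that may differ. At the threshold, 3 genes passed in both replicates, 2 (sls-2.15 and sls-2.16) in replicate 2 only and 13 in neither. Of the 9 genes past the threshold in the list of both replicates, 5 passed in neither replicate's own list.

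Summits lay at and beside the small gene rather than at a fixed place. Of the 9 strongest summits past the threshold, 4 lay inside the gene, 2 upstream and 3 downstream, and of the 7 others 2, 1 and 4. Their median position for the 9 genes was 68 bp past the first base, and in the replicates' own lists it was 21 bp over 3 genes and 19 bp over 5. Between replicates the strongest summit of a gene moved by a median of 46 bp (4 to 223), and by 50 bp or less at 7 of 14 genes. With a gene length near 110 bp, a summit therefore does not tell the leader, the promoter and the end of the gene apart. A further ranked summit lay within 200 bp at 9 genes, and at 3 of them (sls-2.4, sls-2.5 and sls-2.7) it passed the IDR threshold too. At sls-2.5 and sls-2.7 this further summit had a signal of only 20.3 and 12.5. No summit was shared between members.

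**Figure D3:**
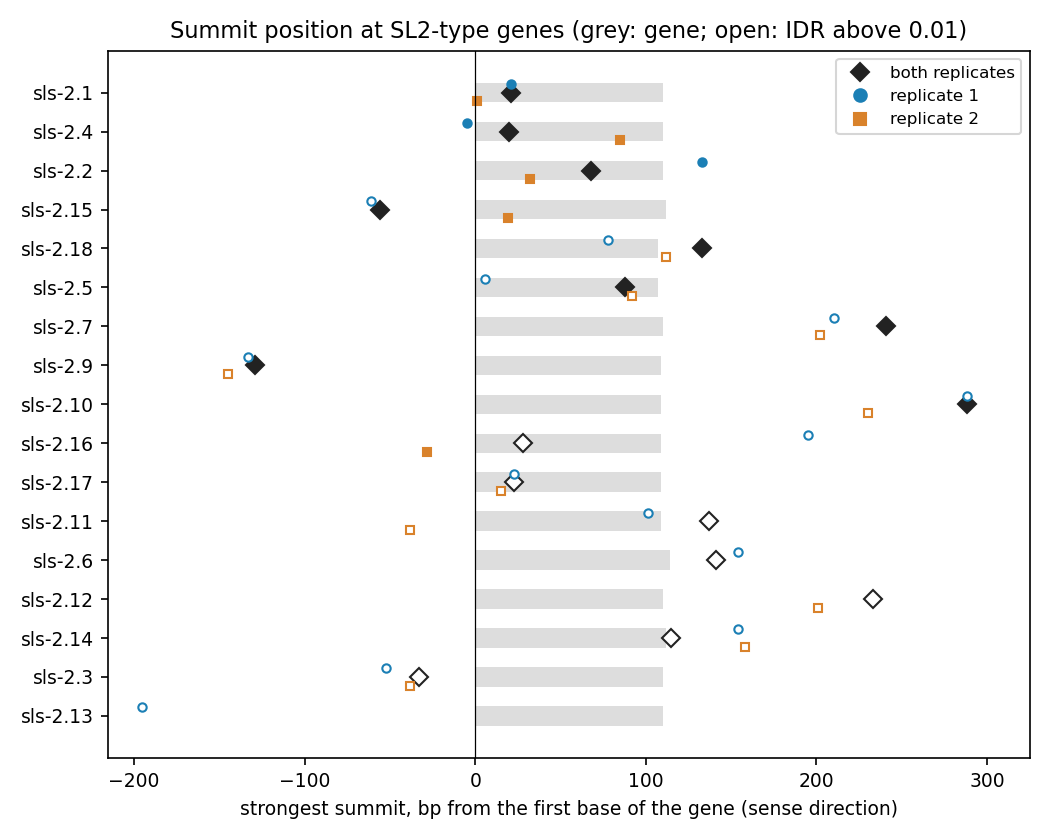
Position of the strongest summit at each SL2-type gene with a ranked summit, in bp from the first base of the gene in the sense direction, for the list of both replicates (diamonds) and replicates 1 (circles) and 2 (squares). Grey bars mark the gene and open symbols an IDR above 0.01, and the summits run from 195 bp upstream to 288 bp downstream of the first base.

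SL2-type genes often sat inside or against other genes. Of the 18, 7 lay wholly within a protein-coding gene, among them sls-2.5, sls-2.16 and sls-2.18 within glr-2, a glutamate receptor gene, and sls-2.14 and sls-2.15 within W09D6.5. The 3 genes in glr-2 lie 837 and 791 bp apart and had signals of 114, 98.6 and 131, each with a summit of its own. The pair in W09D6.5 lies 486 bp apart on opposite strands, with its starts facing outward from a shared upstream stretch, and differed more, with 38.9 at sls-2.14 and 135 at sls-2.15. Whether neighbouring genes share signal was not tested.

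Upstream of the genes, the leader groups also differed. The 80 bases before the start are shown for the SL1 gene and for 1 gene with each of 3 upstream motifs, together with sls-2.3, from the same assembly and on the strand of the gene, with the motifs described next in capitals.
sls-1.10 (V:17131162-17131241, minus strand): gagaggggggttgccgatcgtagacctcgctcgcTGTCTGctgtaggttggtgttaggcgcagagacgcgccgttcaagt
sls-2.1 (II:5844785-5844864, plus strand): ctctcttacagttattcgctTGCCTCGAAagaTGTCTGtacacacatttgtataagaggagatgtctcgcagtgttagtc
sls-2.3 (II:5544274-5544353, minus strand): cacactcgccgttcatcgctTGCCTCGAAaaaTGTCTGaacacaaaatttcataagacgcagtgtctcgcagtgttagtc
sls-2.15 (III:11090930-11091009, plus strand): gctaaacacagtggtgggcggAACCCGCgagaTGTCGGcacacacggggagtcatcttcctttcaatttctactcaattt
sls-2.10 (IV:9130830-9130909, minus strand): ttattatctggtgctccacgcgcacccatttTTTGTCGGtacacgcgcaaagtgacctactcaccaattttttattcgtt
The motifs were chosen after the sequences were seen, and both strands were searched. TGCCTCGAA, which begins 60 bases upstream, was found in the 4 genes sls-2.1 to sls-2.4, in none of the other 14, and in 0.01% of the same stretches before 19973 protein-coding genes (2 genes). Those 4 genes had signals of 34 to 422 with a median of 343, and 3 of 4 passed the threshold. The other 14 SL2-type genes had a median of 99.2 over 12 with a ranked summit (38.9 to 135), and 6 of 14 passed. AACCCGC, 59 bases upstream, was found in 9 other SL2-type genes, in 24.2% of other snRNA genes and in 0.235% of protein-coding genes. Those 9 had signals of 38.9 to 135 over 8 genes, and 4 of 9 passed. TTTGTCGG was found in sls-2.9, sls-2.10 and sls-2.11, with signals of 109, 99.7 and 60.5, in 8.08% of other snRNA genes and in 0.195% of protein-coding genes. TGTCNG, which overlaps TTTGTCGG, was found in 16 of 18 SL2-type genes and in 10 of 12 SL1-type genes, in 54.5% of other snRNA genes and in 7.63% of protein-coding genes. It starts 47 or 48 bases upstream in 15 of those 16 SL2-type genes, a place where snRNA genes carry their proximal sequence element.

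The body of the genes was more alike than the upstream stretch. Over the 153 pairs of SL2-type genes the median identity was 76.1% for the gene (66.4 to 99.1) and 53.8% for the 80 bases before it (41.2 to 96.2). Within the group of sls-2.1 to sls-2.4 the medians were 94.1% and 73.9% over 6 pairs, and between that group and the other SL2-type genes 74.8% and 50% over 56 pairs. The gene sls-1.10 was 62% identical to SL2-type genes (56.7 to 64.7). AATTTTTGG, an Sm-type site (the place where the ring of Sm proteins sits on the RNA), was found in 13 of 18 SL2-type genes, 14.1% of other snRNA genes and 0.541% of the first 110 bases of protein-coding genes. AATTTTGG, which lacks a T of that run, was found in all 12 SL1-type genes, 3 SL2-type genes, 2.02% of other snRNA genes and 1.25% of protein-coding genes. The stretch before the start had a median G and C content of 61.2% at SL1-type genes, 48.7% at SL2-type genes and 32.5% at protein-coding genes.

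The X-box consensus, the sequence known for RFX binding, was searched on both strands in each gene with 200 bp on either side. It was found at 4 of 18 SL2-type genes (22.2%), 0 of 12 SL1-type genes, 8.08% of other snRNA genes and 4.74% of windows of 510 bp around protein-coding starts. The 4 genes were sls-2.9, sls-2.10, sls-2.11 and sls-2.13, so none of the 3 strongest genes held a full match. In sls-2.9, sls-2.10 and sls-2.11 the match spanned the end of the leader on the opposite strand. Relative to the summit, its middle lay at +148 bp in sls-2.9, −268 bp in sls-2.10 and −117 bp in sls-2.11. The stretch at the end of the leader was then compared across the genes, a choice made after that match was seen. It is shown in antisense for the strongest gene, for a full match and for the strongest gene with another leader, with the positions outside the consensus in capitals.
sls-2.1 (II:5844877-5844890, opposite strand of the gene): gtaccttGagtaac
sls-2.10 (IV:9130803-9130816, opposite strand of the gene): attaccttggtaac
sls-2.15 (III:11091023-11091036, opposite strand of the gene): CtaaccttggtTaA
At sls-2.1, sls-2.2, sls-2.3 and sls-2.4 this stretch matched 13 of 14 positions, 12 to 25 bp past the first base. The summits of sls-2.1 and sls-2.4, at +21 and +20 bp, fell within it in the list of both replicates, and those of sls-2.2 and sls-2.3, at +68 and −33 bp, did not. In the replicates' own lists the summit of sls-2.1 fell within it in replicate 1 (+21 bp) and outside it in replicate 2 (+1 bp). That of sls-2.4 lay outside it in both, at −5 and +85 bp. Within 34 bases centred on the end of the leader, 7 of 18 SL2-type genes matched at 13 or more of 14 positions (38.9%). Of these, 3 matched fully (16.7%), and they are sls-2.9, sls-2.10 and sls-2.11, whose matches led to the choice. The others are sls-2.1 to sls-2.4, which are 90.9% to 97.3% identical, so these genes are not independent. In 34 bases centred on protein-coding starts the shares were 3.11% and 0.17%, but those windows are at an unlike place in the gene. With sls-2.3 at 34 and sls-2.1 at 422, genes with the same match had the lowest and the highest signals of the type. In sls-1.10 the best match within 34 bases, 12 of 14 positions, lay 23 to 36 bp past the first base. That is after its leader and not across the leader's end. Among protein-coding starts 24.6% matched at 12 or more. A match of letters is a description and not a binding site.

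The SL1-type genes lie in a stretch with no ranked summit. They occupy V:17118154-17132107, 13954 bp, with 11 genes on the minus strand and 1 on the plus strand, a median of 976 bp between the left ends of neighbouring genes (972 to 2550), and 14 of the 16 rrn-4 genes for 5S ribosomal RNA among them. In the list of both replicates the nearest ranked summits were at V:17105349 and V:17139805, 34456 bp apart. The same stretch was empty in each replicate, with gaps of 34386 bp and 34448 bp in replicates 1 and 2. The median distance between neighbouring ranked summits was 518 bp, and the gap ranked 239th of 117980 by length.

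The sequence of the array is repeated, which touches any count of peaks there. The share of 50-base sequences found at a single place in the genome had a median of 0% over the 12 SL1-type genes with 200 bp on either side (0 to 29.4), and was 0% at 10 of them. Over SL2-type genes it was 94.2% (80 to 100), over other snRNA genes 84.5%, and in the nuclear genome 93.5%. With 36-base sequences the medians were 0% and 90.6% for SL1-type and SL2-type genes. Windows of 500 bp with less than 10% unique 36-base sequences made up 2.77% of the genome, 0.0924% of ranked summits (109 of 117986) and 0 of the 996 summits at an IDR of 0.01 or less. Ranked peaks were thus rare over such sequence across the whole genome, and how reads with several matches were treated is not given in the sources used here. Whether DAF-19 binds at SL1-type genes cannot be told from these lists, and the contrast of 9 of 18 with 0 of 12 cannot be told apart from the contrast in repeats.

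The gap also takes in sequence on either side of the array, which holds no ranked summit by the definition of the gap. The 12805 bp between the last summit on the left and the array were 90.5% unique, and the 7698 bp on the right 81.6%. Across the genome 1074 gaps of 10000 bp or more occurred in the list, 0.91% of the 117980 gaps, and 579 of them had 90% or more unique 50-base sequences. Of the 16 rrn-4 genes, most of which lie in the array itself, 0 passed the threshold, and their median was 11.7% unique sequence. The only rrn-4 gene with a ranked summit was rrn-4.16, with a signal of 44.5 and 100% unique sequence. rrn-4.15, at 82.1%, and rrn-4.3, at 55.5%, had none. Among SL2-type genes sls-2.8, with no ranked summit, and sls-2.15, with a signal of 135, both stood at 100%. The part of repeats in missing summits was not tested.

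**Figure D4:**
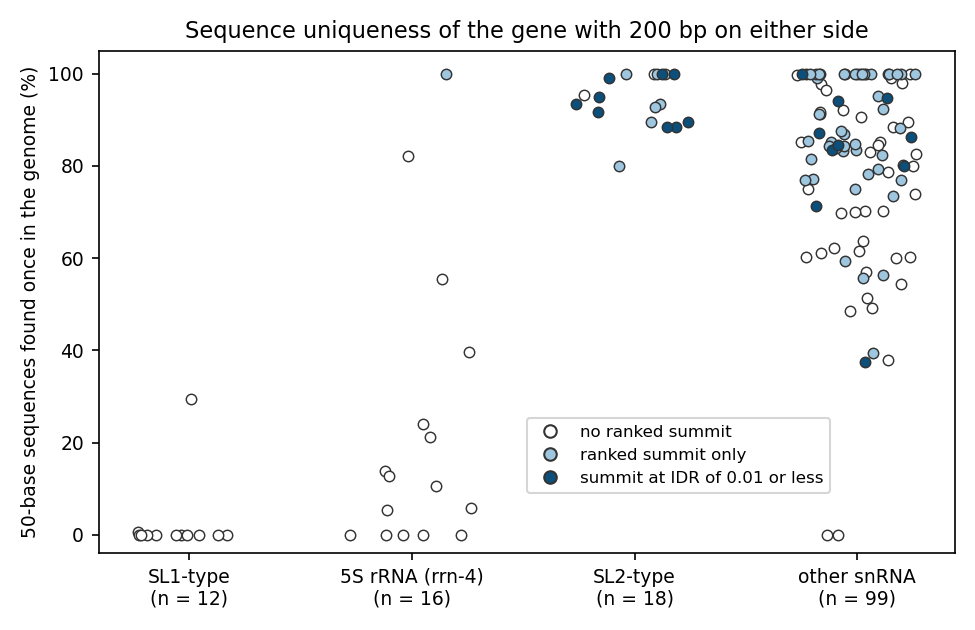
Share of 50-base sequences found at a single place in the genome (percent) in each gene with 200 bp on either side, 1 point a gene, for SL1-type, 5S, SL2-type and other snRNA genes, filled by whether a ranked summit or a summit at an IDR of 0.01 or less was present. Of the SL1-type genes 10 of 12 stand at 0%, and SL2-type genes stand between 80% and 100%.

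Peaks were also counted at genes for the proteins of trans-splicing. Of 40 listed genes 38 were found in the annotation, and 3 had a summit at an IDR of 0.01 or less in the promoter, taken as 1000 bp before and 200 bp after a start. That is 7.89% (95% Wilson interval 2.72 to 20.8), against 2.48% of all protein-coding genes (495 of 19973). suf-1, for a subunit of the cleavage factor that forms message 3′ ends, had a signal of 125 at 22 bp past its start. cpf-1, for another subunit of that factor, had 123 at −761 bp from its start. Both lie side by side on chromosome II, and their strongest summits differed. The summit counted for cpf-1, at II:8603201, lies between the genes and also within 1000 bp before the start of suf-1 (II:8603846). Which of these genes it belongs to cannot be told apart from its position. With 500 bp before the start in place of 1000 bp, 1 gene of the 3′ end list passed. snr-4, for an Sm core protein of snRNA and leader RNA particles, had 114 at −397 bp and was the only such gene of 7. Of the lists for leader RNA particle proteins, the SMN complex, SNAPc, splice site factors and Integrator, with 5, 2, 7, 3 and 10 genes found, 0 genes passed. Whether sut-2, listed with the leader RNA particle proteins, belongs there is uncertain. In the replicates' own lists 0 and 3 genes of the 38 passed, the latter being 2 of the 3′ end list and 1 of Integrator. A ranked summit lay in the windows of 26 of the 38 genes (68.4%), with a median signal of 62, beside 69.8% and a median of 54.3 over the same windows of all protein-coding genes.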

How the data were processed

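Positions, signal values and −log10 IDR values are the authors' own, from 8 deposited peak lists on assembly ce11 (WBcel235). There is a ranked and a thresholded list for each replicate and for each of 2 sets made from both replicates. Per the file headers the lists derive from the replicates' alignments and a control. How reads were aligned, how peaks were called and how the deposited signal was scaled is not stated (not given in the sources used here). Thresholded lists equalled the ranked peaks whose deposited −log10 IDR was 2 or more. Both combined ranked lists have unnamed further columns, 16 in all, that were left out.

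Summits were set against the Ensembl release 115 annotation within 200 bp of a gene, and the strongest was taken by signal. Promoters were 1000 bp before to 200 bp after a transcript start. Sequences are from the RefSeq genome of the same assembly, and uniqueness is the share of 36- or 50-base sequences found at a single place on either strand. Identity is from global alignment. The genes named are all members, described in full where a summit passed, with every pathway gene that passed, the 3 strongest other snRNA genes and protein-coding genes starting within 1000 bp of a summit described here; farther starts and hosts were added after the values were seen. Members and lists were chosen with earlier results of these data known, and no test was made. With a single group of 2 samples, p-values would have measured only the spread between these samples. The assignment and uniqueness scripts were tested on simulated data. Alternatives were other windows, IDR thresholds, lists and assignment rules, and each replicate alone. Tools were Biopython 1.88, matplotlib 3.10.9, numpy 2.4.6, Python 3.11.15, scipy 1.17.1 and pandas 2.3.3.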

Additional observations from a re-analysis of the deposited data

How the results depend on the processing

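Of 60 alternatives, 43 stayed within their limits. For counts the limit was 1.5 times the main count, and for unique shares a Wilson interval. For the median signal and position it was the standard deviation of the replicates' medians, 3.87 and 1.41 bp. These last limits are rough, since the replicates' signals are on their own scales and their positions rest on 3 and 5 genes. Many of these 43 are weak checks. Every alternative run for SL1-type genes gave 0 genes and is among them, although binding there cannot be told from these lists. The unique share at SL1-type genes, also among them, stayed at 0%. No summit was shared between members, so counting shared summits once could not change a result. The thresholded list used as an alternative equals a ranked list cut at the same IDR, so it repeats another setting. All alternatives outside these limits concerned SL2-type or trans-splicing genes. The 9 SL2-type genes past the threshold became 5 with summits inside the gene only, 5 with each summit given to its nearest gene only (sls-2.9, sls-2.10, sls-2.15 and sls-2.18 were lost), 3 at a −log10 IDR of 3 or more, and 3 to 5 with a replicate left out. Inside the gene only and with the nearest gene only, sls-2.7 counts just through its summit at +41 bp, with a signal of 12.5. The 16 genes with any ranked summit became 8 inside the gene only and 10 with the nearest gene only. The median signal of 104 became 94.6 within 100 bp, 114 within 500 bp, 96.6 with the nearest gene only and 96.6 with the summit nearest to the start. The median position of 68 bp became 19 to 21 bp with a replicate left out, 41 bp with the nearest summit and 78 bp over all genes with a ranked summit. The unique share at SL2-type genes was 94.2% with 50-base in place of 36-base sequences. The 3 trans-splicing genes past the threshold became 0 to 3 with a replicate left out, 0 without replicate 2. Of alternatives added after the data were seen, counting peaks whose interval overlaps the gene gave 9, a fixed window of 510 bp gave 9 and leaving out summits within 200 bp of a tRNA or snoRNA gene gave 8. Depth per replicate is unknown, so a missing peak is not a measured absence. The causes of these changes were not tested, apart from the smaller windows and sets of peaks that the alternatives themselves impose.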
